A study of Mus musculus with 4 samples.

Results

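Homeostatic-state microglia were taken from 4 single-cell libraries of brain cells, selected on measured RNA. The name stands here for cells that carry markers of resting microglia and pass limits on other genes. It does not mean an unchanged resting profile. A cell had to show at least 500 genes, at least 1000 unique molecular identifiers (UMIs, each standing for 1 captured RNA molecule) and at most 10% mitochondrial UMIs. It had to carry UMIs of at least 3 of Sall1, Siglech, P2ry12 and Tmem119, and to stay under limits for 22 genes of activated, interferon-responding, cycling or neuron-associated cells. The limits were fewer than 2 UMIs per 10000 of Cst7 and Lpl together, no Cd5l, fewer than 10 per 10000 of Ifi27l2a, fewer than 4 of 6 interferon-induced genes, not both Il1a and Gpr84, at most 1 of 4 neuronal genes and fewer than 3 of 6 cell cycle genes. The rule kept 1189 of 8018 cells that passed the quality limits, out of 16040 barcodes. All 26 genes of the rule are described here with no test, because they chose the cells.

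The cells were CD11b-positive brain cells of mice aged 8 to 12 weeks, taken on day 6 with magnetic beads from a tissue punch and sequenced from the 3′ end of the RNA. The groups were IL6 WT (+/+) mice after sham surgery, IL6 WT (+/+) mice after cerebrovascular injury (CVI), IL6 KO (-/-) mice after sham surgery and IL6 KO (-/-) mice after CVI, with 1 library each. CVI was made with microspheres in the blood and ultrasound over a thinned skull, and of the mild and severe forms in the protocol none is named as the one used here. The sample labels place the controls after sham surgery, whereas the protocol for tissue collection calls them uninjured, and how many mice went into a library is not stated in either.

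Microglia are the resident macrophages of the brain. In the resting state they depend on signals through the receptors for colony stimulating factor 1 and transforming growth factor beta, and they sense released nucleotides through P2ry12 and related receptors. Sall1 encodes a transcription factor of microglial identity, Siglech a sialic acid binding receptor and Tmem119 a membrane protein, and these genes are known to fall when microglia turn to a disease-associated or interferon-responding state.

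The libraries held 992, 2996, 1392 and 2638 cells passing the quality limits in the order wild-type sham, wild-type injured, knockout-labelled sham and knockout-labelled injured, an order kept below. Member cells held a median of 6464.5, 5629, 7010.5 and 6096.5 UMIs, and their summed UMIs ranged from 1425244 to 2777037 per library. Il6, the targeted gene (chr5:30013114-30019981), was found in members of all 4 libraries, with 19, 3, 47 and 49 UMIs or 12.3, 2.10, 16.9 and 23.7 CPM (counts relative to all member UMIs of a library), so the genotype is given here as a label. Counts of 3′ tags do not check a deletion whose position is not given. Itgam, which encodes CD11b, the protein used for selection, was present at 511, 399, 541 and 464 CPM. The sham libraries shared 135 barcodes with each other and the other pairs shared 2 to 14. Among members, 3 and 11 cells of the sham libraries had a barcode of the other sham library, and no barcode was a member in 2 libraries. Each group is a single library, so no p-value below measures the spread between libraries of a group.

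After injury, homeostatic-state cells made up a smaller share of each library, under both labels. Members numbered 236, 217, 414 and 322 cells. Of the cells passing the quality limits they were 23.8% (exact Clopper-Pearson 95% interval 21.2 to 26.6), 7.24% (6.34 to 8.23), 29.7% (27.3 to 32.2) and 12.2% (11.0 to 13.5). Of the cells with at least 3 of the 4 markers they were 33.2%, 12.0%, 37.4% and 15.9%. Both sham shares lay above both injured shares on either base. Bead selection also sets the share of other cell types in a library, and such intervals cover counting error only.

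Which limit kept the other marker-positive cells out differed between sham and injured libraries. The limit on Cst7, an inhibitor of lysosomal proteases, and Lpl, a lipase, was exceeded by 2.81% and 3.16% of marker-positive cells in the sham libraries and by 61.4% and 48.3% in the injured ones. Il1a, a cytokine gene, and Gpr84, a receptor gene for fatty acids, were found together in 56.3%, 62.0%, 50.3% and 68.2%, so this limit took many cells in every library and was the sole reason in 38.7%, 17.7%, 37.6% and 26.4%. Neuronal transcripts went the other way, being over the limit in 24.6% and 22.1% of marker-positive sham cells against 2.10% and 2.47% of injured ones. Marker-positive cells outside the gate were deeper than members, at medians of 11029, 10526.5, 10118 and 9962 UMIs. With every cell thinned to 3000 UMIs before the rule was applied, which sets depth equal, members were 49.5%, 9.59%, 55.1% and 18.3% of the cells deep enough.

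**Figure D1:**
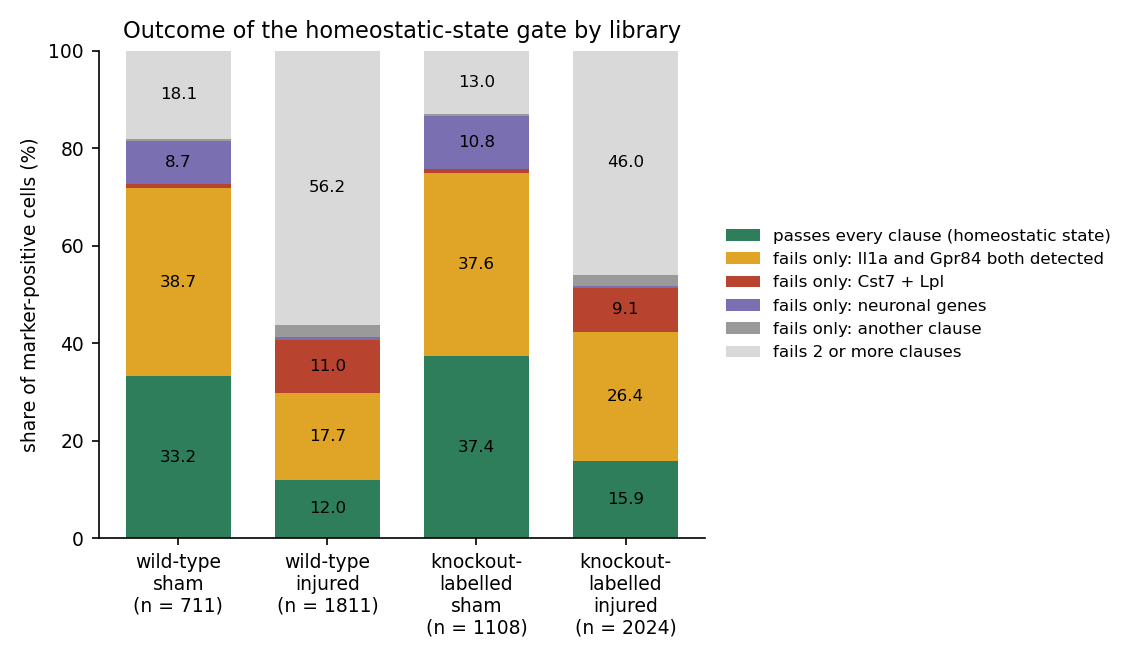
Outcome of the rule for cells with at least 3 of Sall1, Siglech, P2ry12 and Tmem119 in each library. The vertical axis is the percentage of marker-positive cells and the colours give members, cells that failed 1 limit alone and cells that failed several. Members are 33.2% and 37.4% in the sham libraries and 12.0% and 15.9% in the injured ones, where cells failing several limits make up 56.2% and 46.0%.

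At the edge of the rule, the highest Cst7 and Lpl level of a member was 1.84, 1.96, 1.996 and 1.99 per 10000, and the lowest of an excluded cell was 2.27, 2.05, 2.07 and 2.05. Of the members, 223, 162, 394 and 238 had no UMI of either gene. Another 55, 94, 68 and 53 cells met every limit with 2 of the 4 markers. The 4 markers themselves were P2ry12 at 2227, 1328, 2652 and 1846 CPM, Tmem119 at 1182, 608, 1149 and 821 CPM, Siglech at 1266, 707, 1198 and 883 CPM and Sall1 at 263, 189, 290 and 223 CPM, each lower in both injured libraries than in both sham libraries. All 4 markers were found in 65.3%, 59.0%, 72.9% and 70.2% of members.

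The question put to the members was which genes outside the rule differ between injured and sham libraries among cells that still pass as homeostatic. UMIs were summed over the members of each library and fitted with edgeR's quasi-likelihood test, with the genotype label as a covariate and trimmed-mean (TMM) scaling. A CPM is relative to all UMIs of the members, so RNA lost by a few cells and RNA lost by all of them cannot be told apart in a sum, and per-cell values are given where a result turns on it. The residual spread in this fit is how far the 2 injured-to-sham pairs, which share no library, depart from a common effect. It has 1 residual degree of freedom, against 16.66 prior degrees of freedom that edgeR takes from all genes. The variance of a gene is therefore mostly shared, and a gene whose pairs differ widely can still have a small p-value. Of 7955 genes tested, 468 (5.88%) were higher and 214 (2.69%) lower in the injured libraries at a Benjamini-Hochberg adjusted p under 0.05, which is 8.57% of genes called. A fit without 1 library also has to leave out the label. It gave 167 higher and 40 lower without the wild-type injured library, 338 and 70 without the knockout-labelled injured one, 367 and 130 without the wild-type sham one, and 462 and 331 without the knockout-labelled sham one, beside 420 and 162 with all 4 libraries and no label. Scaling by library size alone moved the median log2 change of all genes from -0.02 to -0.21 and gave 243 higher and 371 lower, so that 39.6% of called genes were higher in place of 68.6%. DESeq2 called 175 higher and 20 lower. Without the barcodes found in another library 485 were higher and 232 lower.

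**Figure D2:**
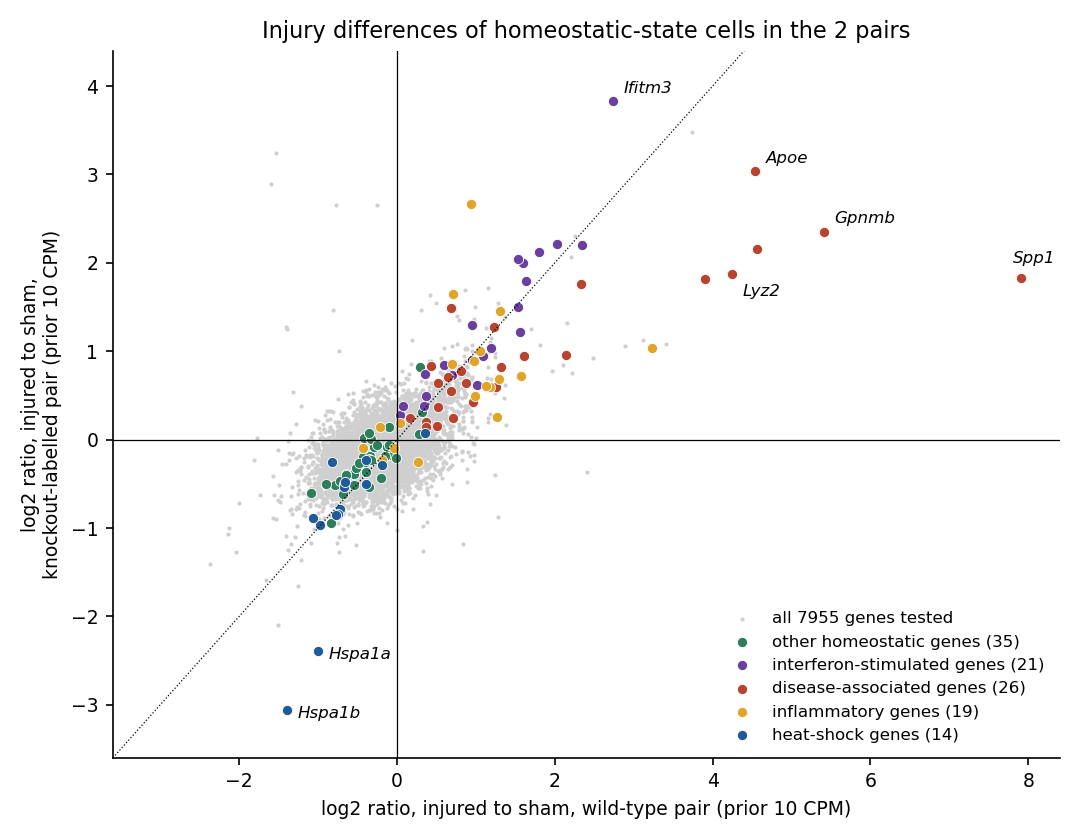
Log2 ratio of injured to sham in members for each of 7955 tested genes (gray) and the genes of 5 lists (coloured), with the wild-type pair on the horizontal axis and the knockout-labelled pair on the vertical axis. Ratios are of CPM with a prior of 10 CPM. Interferon-induced and disease-associated genes lie mostly to the upper right and heat shock genes to the lower left.

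Most genes of the resting state outside the rule did not pass the test. Of 35 further homeostatic genes, 3 fell and 2 rose after injury, and the list's median log2 change was -0.12 beside -0.02 for all genes. At an unadjusted p under 0.05, 10 were lower and 3 higher. P2ry13, a receptor for adenosine diphosphate (chr3:59207892-59210882), stood at 466, 256, 568 and 290 CPM. Both sham values lay above both injured ones, and the level fell 1.82-fold (exact 95% interval of the count ratio 1.60 to 2.07) in the wild-type pair and 1.95-fold (1.78 to 2.15) in the knockout-labelled pair (edgeR log2 change -0.72, SE 0.15, adjusted p = 0.00389). Slc2a5, a fructose transporter, was 282, 128, 289 and 187 CPM (log2 change -0.67, adjusted p = 0.0123), and Entpd1, an enzyme that breaks down extracellular nucleotides, was 358, 187, 291 and 202 CPM (-0.52, adjusted p = 0.0403). None of these 3 passed the edgeR test without the wild-type injured library, at adjusted p of 0.0633, 0.274 and 0.209. The genes that rose were Lag3, an immune checkpoint receptor, at 149, 185, 173 and 312 CPM (0.80, adjusted p = 0.00376), and Serpine2, a protease inhibitor, at 314, 392, 414 and 519 CPM (0.52, adjusted p = 0.0296). Under library size alone neither passed, at adjusted p of 0.0582 and 0.14, while 12 of the 35 genes fell.

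Cx3cr1, the fractalkine receptor gene, was 2935, 1694, 2661 and 1863 CPM, with both sham values above both injured ones, but did not pass (edgeR log2 change -0.45, SE 0.15, adjusted p = 0.068). Cst3, which encodes the protease inhibitor cystatin C, was 54808, 41262, 63067 and 52758 CPM and did not pass either (edgeR log2 change -0.13, SE 0.17, adjusted p = 0.717). Of 11 transcription factor genes of microglial identity, Mef2a fell (766, 399, 623 and 434 CPM, log2 change -0.53, adjusted p = 0.0312) and 10 did not pass, among them Spi1 and Irf8. Of 11 genes of the transforming growth factor beta axis, none passed in edgeR or DESeq2 and 1 had an unadjusted p under 0.05 in each, and the list's median log2 change was -0.21. Its receptor gene Tgfbr1 was 762, 474, 812 and 569 CPM (-0.40, adjusted p = 0.0962). Of 6 purinergic genes, P2ry13 and Entpd1 fell as above and P2rx4, an ion channel opened by ATP, rose from 63.6 and 61.6 to 98.9 and 87.9 CPM (0.77, adjusted p = 0.00587). Of 8 genes of the Csf1r and Trem2 pathways, only Csf1, a ligand of Csf1r, rose (25.3, 77.9, 35.6 and 71.0 CPM, 1.44, adjusted p = 9.81e-05), whereas Csf1r was 2899, 1976, 3154 and 2404 CPM (-0.27, adjusted p = 0.298) and Trem2, a lipid receptor, 2057, 2656, 2317 and 2658 CPM (0.48, adjusted p = 0.0554).

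**Figure D3:**
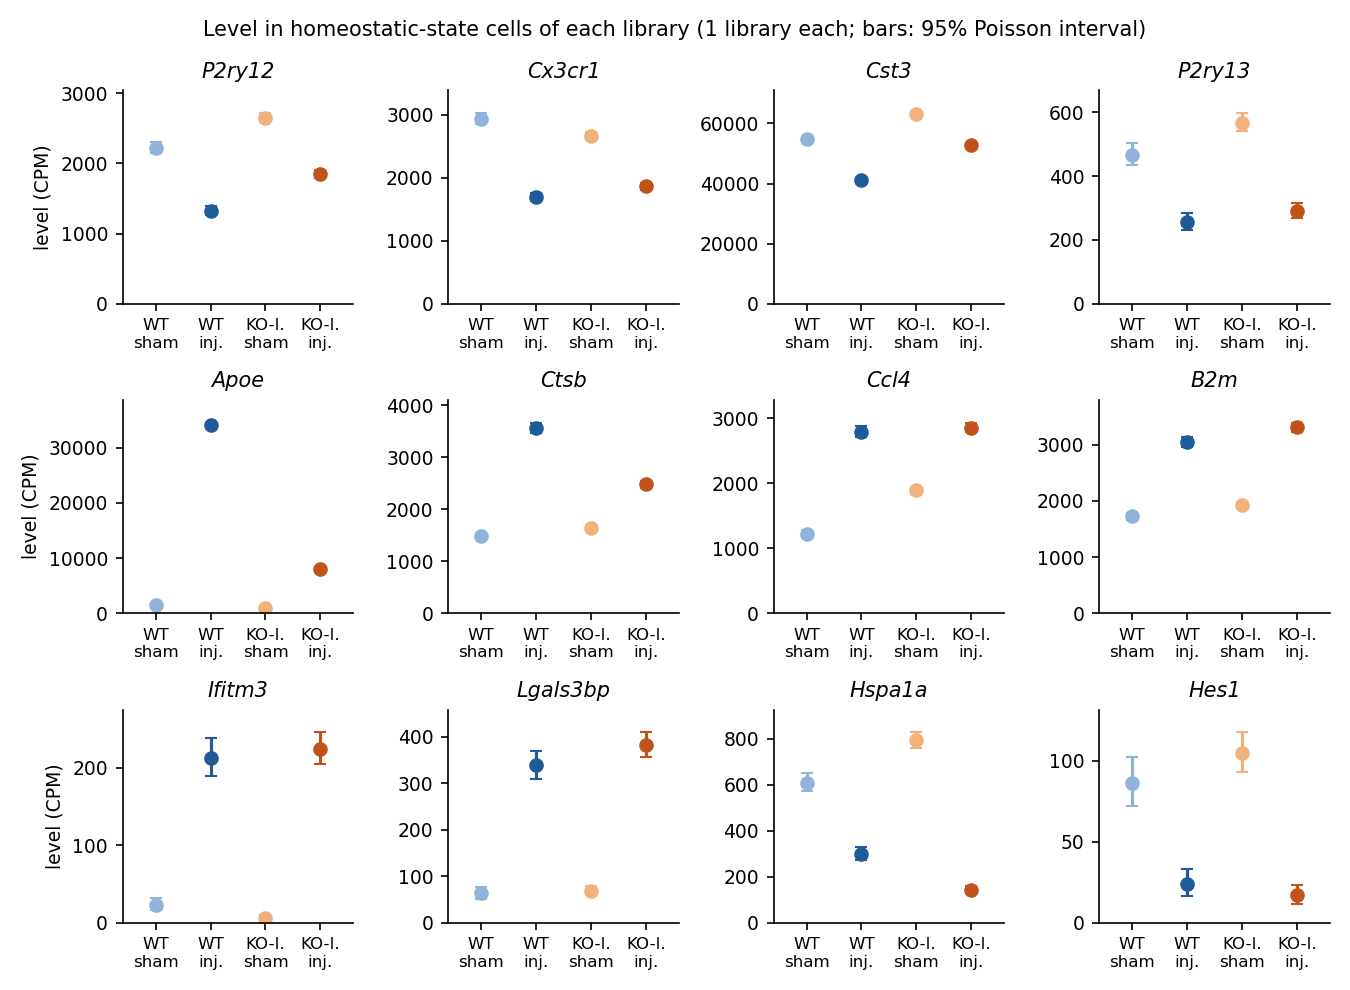
Summed level of 12 genes in the members of each library, in CPM with exact Poisson 95% intervals, which cover counting error only. P2ry12 is a gene of the rule and is shown as a description. Apoe, Ctsb, Ccl4, B2m, Ifitm3 and Lgals3bp are higher in both injured libraries, P2ry13, Hspa1a and Hes1 are lower, and Cst3 and Cx3cr1 did not pass the test.

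Genes of disease-associated microglia rose together in cells that the rule had kept low in Cst7 and Lpl. Of 26 tested genes on that list of 27, 23 rose and none fell, with a median log2 change of 1.23. Some, such as Axl, Spp1, Gpnmb and Lgals3, were under 10 CPM in both sham libraries. They met the filter of at least 10 CPM in 2 libraries only through the injured ones, so they could hardly be called lower. The count, the median and the adjusted p-values of such genes are therefore not support by themselves. Without the wild-type injured library 14 of 20 testable genes rose, and DESeq2 called 16 of 26. Cathepsin B (Ctsb, chr14:63122462-63145923), a lysosomal protease gene, was 1480, 3562, 1639 and 2476 CPM. Both injured values lay above both sham ones, by 2.41-fold (2.29 to 2.53) and 1.51-fold (1.45 to 1.57) in the 2 pairs (edgeR log2 change 1.13, SE 0.18, adjusted p = 0.000406, but 0.109 with DESeq2). Cd63, a lysosomal membrane protein gene, was 297, 931, 340 and 663 CPM (3.13-fold and 1.95-fold, adjusted p = 2.24e-05), and Fth1, the ferritin heavy chain gene for iron storage, 3637, 6694, 3382 and 5266 CPM (0.96, adjusted p = 0.000663). Cathepsin L (Ctsl) was 1519, 2393, 1539 and 2521 CPM (0.88, adjusted p = 0.000703). Axl, a receptor tyrosine kinase gene for uptake of dead cells, was near absent in the sham libraries at 2.60 and 2.52 CPM and stood at 53.3 and 32.4 CPM in the injured ones (4.13, adjusted p = 3.46e-07). Igf1, a growth factor gene on the list, was not tested because it reached 10 CPM in the wild-type injured library alone, with 3.24, 61.0, 6.48 and 7.73 CPM.

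The genes with the widest changes on this list were uneven between cells. Apoe, the lipid carrier apolipoprotein E (chr7:19696109-19699188), was 1458, 34186, 958 and 7955 CPM. It was 23.5-fold (22.5 to 24.5) higher in the wild-type injured library and 8.30-fold (7.97 to 8.65) higher in the knockout-labelled injured one than in the matching sham library (edgeR log2 change 4.00, SE 0.28, adjusted p = 3.80e-08). The 10 cells with the most Apoe held 82.3%, 54.1%, 73.6% and 58.0% of its UMIs. At 3000 UMIs per cell, 36.5%, 98.98%, 42.8% and 89.7% of members had an Apoe UMI (51.7%, 100%, 55.8% and 95.3% unthinned), with medians of 0, 15, 0 and 5. Endothelial cells (no gate marker and at least 4 of 8 endothelial genes) serve here as a rough measure of free RNA, with 16, 43, 32 and 80 cells after thinning. They had Apoe in 93.8%, 100%, 84.4% and 91.2%, with medians of 2, 8, 2 and 5. The share of members with Apoe was therefore not above that of another cell type in any library. In the knockout-labelled injured library the median was equal too, while in the wild-type injured one the members' median was higher. In the sham libraries the endothelial share lay well above that of members at equal depth, so for Apoe it does not measure free RNA alone. How much of the members' Apoe was free RNA was not tested.

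Spp1, which encodes the secreted protein osteopontin (chr5:104435118-104441050), had 0, 3420, 8 and 74 UMIs, or 0, 2400, 2.88 and 35.7 CPM. Against a floor of 3 UMIs in the wild-type sham library this is at least 1233-fold higher in the wild-type pair, and it was 12.4-fold (5.98 to 29.8) higher in the knockout-labelled pair (edgeR adjusted p = 1.78e-07). The share of members with Spp1, 0%, 51.8%, 0.293% and 6.05% after thinning, was close to that of endothelial cells (6.25%, 46.5%, 0% and 7.50%). The endothelial shares rest on few cells, with 6.25% being 1 cell of 16. In the wild-type injured members 10 cells held 91.9% of the Spp1 UMIs. Gpnmb, a lysosomal glycoprotein gene, had 0, 591, 0 and 85 UMIs, which is at least 213-fold and at least 38.0-fold higher in the 2 pairs, with 96.8% of the wild-type injured UMIs in 10 cells (adjusted p = 1.19e-10). DESeq2 called neither Spp1 (adjusted p = 0.254) nor Gpnmb (0.245). The lysozyme gene Lyz2, an abundant transcript of monocytes and macrophages, was 392, 7649, 334 and 1256 CPM, 19.5-fold (18.0 to 21.2) and 3.76-fold (3.49 to 4.06) higher (adjusted p = 1.76e-05, but 0.068 with DESeq2). Lyz2 was found in 48.1%, 86.3%, 48.1% and 72.2% of thinned members against 12.5%, 39.5%, 0% and 12.5% of endothelial cells, so its share was above that measure of free RNA in every library. Fabp5, a fatty acid carrier gene, was 11.7, 500.3, 9.72 and 77.8 CPM (adjusted p = 1.32e-07). Lgals3, the galectin-3 gene, was 3.24, 188, 2.52 and 34.3 CPM (adjusted p = 1.03e-08), and Vim, the intermediate filament gene vimentin, was 22.1, 138, 5.76 and 56.0 CPM (adjusted p = 2.74e-08).

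The summed border macrophage markers were higher in the injured than in the sham library of the wild-type pair and lower in that of the knockout-labelled pair. The 8 border macrophage genes summed to 42.2, 422, 108 and 70.0 CPM. Of these Ms4a7 held 21, 342, 38 and 83 UMIs, Mrc1 23, 49, 108 and 24 and Pf4 11, 45, 80 and 23. In the knockout-labelled pair Ms4a7 thus rose while Mrc1 and Pf4 fell. Cd163 was at 0 in the wild-type sham members and Cd209f at 0 in the knockout-labelled injured ones. The 8 monocyte genes summed to 27.2, 20.3, 5.04 and 27.5 CPM, with Ly6c2 at 0 in 3 libraries, and the 8 neutrophil genes to 537, 4.91, 2.16 and 1.93 CPM, with Camp at 0 throughout. The 8 endothelial genes summed to 758, 424, 449 and 497 CPM, with Bsg, which many cell types express, at 797, 578, 1161 and 995 UMIs. Members with at least 3 genes of one of these 4 lists numbered 11, 9, 6 and 4. Without them, a step chosen after seeing the data, Apoe was 1050, 25767, 520 and 7799 CPM, Lyz2 332, 4814, 290 and 1213 CPM and Spp1 0, 748, 1.11 and 34.4 CPM. All 3 still rose (edgeR adjusted p = 4.09e-17, 1.03e-11 and 4.58e-17), and of the 26 disease-associated genes 23 rose and none fell. A fit on fewer members estimates its own variance. A smaller p-value from such a fit, here or below, is not read as stronger evidence. A wider step, also chosen after seeing the data, left out 16, 42, 6 and 18 members, those above and any with a UMI of Ms4a7 or Gpnmb. Most of them, 40 of the 42 in the wild-type injured library, carried Ms4a7 or Gpnmb, and Gpnmb is itself on the disease-associated list, so this step removes cells partly by the change in question. It put Apoe at 436, 13873, 520 and 4113 CPM, Lyz2 at 258, 918, 290 and 640 CPM, Spp1 at 0, 220, 1.11 and 26.4 CPM, Fabp5 at 5.66, 70.5, 9.95 and 26.4 CPM and Ctsb at 1518, 2715, 1629 and 2422 CPM, and 4 of the 26 genes could no longer be tested. The Lyz2 ratio in the wild-type pair was 19.5 with all members, 14.5 after the first step and 3.55 after the second, and that of Apoe was 23.5, 24.5 and 31.8.

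**Figure D4:**
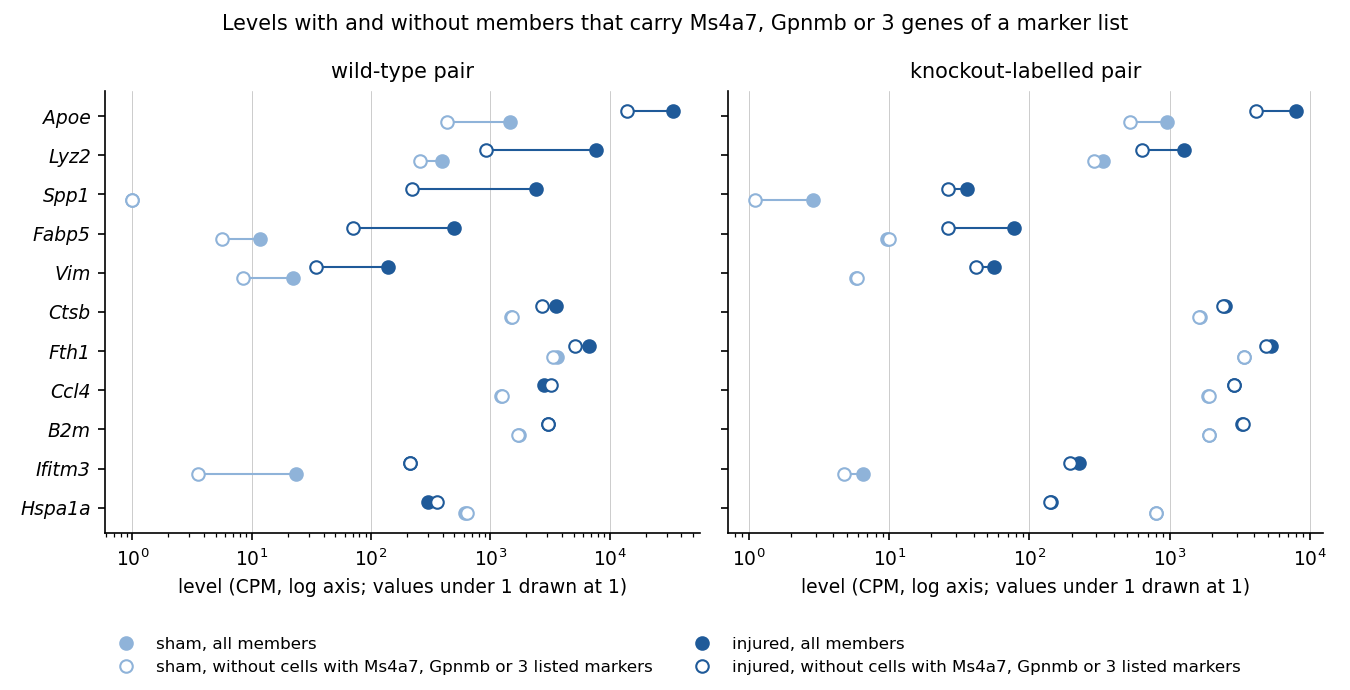
Summed level of 11 genes in CPM (log axis) with all members (filled) and without the 16, 42, 6 and 18 members that carried Ms4a7, Gpnmb or at least 3 genes of the border macrophage, monocyte, neutrophil or endothelial list (open). The open points of Apoe, Lyz2, Spp1 and Fabp5 in the wild-type injured library fall well below the filled ones, whereas those of B2m and Ccl4 lie close to them in every library and those of Ifitm3 in the injured libraries.

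Interferon-induced genes rose in the injured libraries under both labels. The rule had capped Ifi27l2a and 6 such genes, and none of these is counted here. Of 21 other interferon-induced genes tested on a list of 23, 19 rose and none fell, with a median log2 change of 1.98. Some, such as Irf7, Ifi204, Rtp4, Stat2, Slfn5 and Oas1a, were under 10 CPM in both sham libraries. They met the filter of at least 10 CPM in 2 libraries only through the injured ones. Such genes could hardly be called lower, so the count, the median and their own adjusted p-values are not support by themselves. Without one or the other injured library, 8 of 12 testable genes rose, and DESeq2 called 12 of 21. Ifitm3, an antiviral membrane protein gene (chr7:141009586-141010770), was 23.4, 213, 6.48 and 224 CPM, so the injured libraries lay close to each other and above both sham libraries by 9.10-fold (6.43 to 13.2) and 34.6-fold (21.6 to 58.9) (edgeR log2 change 4.27, SE 0.28, adjusted p = 2.18e-08). In the wild-type sham members 97.2% of its UMIs lay in 10 cells, and without the members with at least 3 genes of another cell type's list it was 4.10, 209, 4.79 and 212 CPM. Lgals3bp, a secreted galectin-binding protein gene that interferon induces, was 62.9, 338, 69.1 and 382 CPM, 5.37-fold (4.31 to 6.75) and 5.52-fold (4.71 to 6.50) higher (2.64, adjusted p = 1.03e-08). Bst2, a protein gene that tethers virions to the cell, was 129, 394, 127 and 379 CPM (1.79, adjusted p = 5.10e-07). Irf7, the transcription factor that amplifies the interferon response, was 5.19, 42.8, 1.08 and 38.2 CPM (4.10, adjusted p = 1.60e-06), Ifi204, a sensor of DNA, was 6.49, 73.7, 3.24 and 50.7 CPM (3.92, adjusted p = 2.90e-08), and Rtp4 was 9.73, 70.2, 8.64 and 76.8 CPM (3.21, adjusted p = 2.90e-08). For each of these genes both injured values lay above both sham values. The genes that did not pass were Ifih1 and Phf11d.

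The sequences upstream of these genes are shown because the list moved together. The interferon-stimulated response element, spelled GAAA, any 2 bases and GAAA, to which interferon-activated factors can bind, was looked for on both strands of the 250 bases upstream of each gene start in the RefSeq table for GRCm38.p6. It was present in 5 of the 13 rising genes with a sequence in the table (38.5%) and in 3.46% of 27025 genes. It was in 0 of 4 genes of the list that were not called or not tested. The list was chosen as interferon-induced, so its share is a description and says nothing about injury. The 5 genes were Stat2, Bst2, Trim30a, Slfn5 and Oas1a, and 4 of their upstream sequences follow, 5′ to 3′ on the strand of the gene, with every match in capitals. Bst2 lies upstream at chr8:71537473-71537722 (minus strand) with 2 overlapping matches, Oas1a at chr5:120907526-120907775 (minus) with 2 overlapping matches, Slfn5 at chr11:82951852-82952101 (plus) with 1 match, and Stat2 at chr10:128270248-128270497 (plus) with 1 match on the reverse strand.
Bst2: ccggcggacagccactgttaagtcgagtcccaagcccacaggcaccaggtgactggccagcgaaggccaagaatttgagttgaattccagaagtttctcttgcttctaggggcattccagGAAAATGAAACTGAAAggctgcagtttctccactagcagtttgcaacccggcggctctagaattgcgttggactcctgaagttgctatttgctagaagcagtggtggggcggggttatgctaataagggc
Oas1a: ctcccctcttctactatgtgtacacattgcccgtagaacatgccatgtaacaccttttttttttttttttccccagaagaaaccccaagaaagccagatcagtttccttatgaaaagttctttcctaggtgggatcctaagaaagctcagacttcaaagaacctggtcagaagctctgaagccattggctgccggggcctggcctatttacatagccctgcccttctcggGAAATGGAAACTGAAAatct
Slfn5: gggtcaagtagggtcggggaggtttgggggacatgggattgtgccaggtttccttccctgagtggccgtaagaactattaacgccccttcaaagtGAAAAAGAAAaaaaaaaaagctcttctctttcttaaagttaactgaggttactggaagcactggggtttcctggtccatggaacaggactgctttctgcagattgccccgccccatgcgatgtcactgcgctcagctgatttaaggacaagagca
Stat2: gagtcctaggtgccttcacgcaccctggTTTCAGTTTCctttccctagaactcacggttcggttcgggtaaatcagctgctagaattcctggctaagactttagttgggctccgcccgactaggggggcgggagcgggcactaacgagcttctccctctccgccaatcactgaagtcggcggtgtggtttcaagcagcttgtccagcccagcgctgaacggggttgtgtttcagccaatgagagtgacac
Beside Bst2 above, Slfn5 was 6.49, 37.9, 2.88 and 43.0 CPM (edgeR log2 change 3.43, adjusted p = 2.40e-06), Oas1a, an enzyme gene that senses double-stranded RNA, was 1.95, 15.4, 2.16 and 13.5 CPM (2.92, adjusted p = 0.000276, 0.0594 with DESeq2), and Stat2, a signal transducer of interferon receptors, was 9.08, 18.9, 8.28 and 22.7 CPM (1.48, adjusted p = 0.00389, 0.504 with DESeq2). The heat shock element (GAA, any 2 bases, TTC, any 2 bases and GAA) was looked for in the same way upstream of the heat shock genes below. It was in 0 of 6 falling genes with a sequence and in 2 of 6 others of that list (Hspe1 and Hspd1). Among all genes it was in 0.514%. A match is a run of letters in this window and not a measured binding site.

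Class I antigen presentation genes rose with them. Of 10 tested, 6 rose and none fell (median log2 change 0.68). B2m, the invariant light chain of class I molecules (chr2:122147686-122153083), was 1724, 3046, 1921 and 3308 CPM, and the thinned median per cell was 5, 8, 5 and 9 UMIs, so the middle of the cells differed and not a few extreme cells alone (1.77-fold, 1.68 to 1.85, and 1.72-fold, 1.66 to 1.79; edgeR log2 change 1.00, SE 0.15, adjusted p = 0.000259). The class I heavy chain genes H2-D1 (648, 1531, 601 and 1467 CPM, 1.46, adjusted p = 3.11e-06) and H2-K1 (605, 1175, 541 and 1094 CPM, 1.19, adjusted p = 3.22e-05) rose too, by 2.36-fold and 2.44-fold and by 1.94-fold and 2.02-fold in the 2 pairs. Of 6 class II genes only H2-Ab1 passed, as higher after injury, at 30.5, 23.9, 7.92 and 103 CPM (edgeR adjusted p = 0.0089). It was lower after injury in the wild-type pair, so the call rests on the knockout-labelled injured library. There 10 cells held 89.7% of its UMIs, and in the wild-type sham members 10 cells held 91.5%.

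Inflammatory genes also rose within the gate, which admits a cell with Il1a or Gpr84 but not with both. Of 19 tested, 13 rose and none fell, with a median log2 change of 1.09. The chemokine gene Ccl4 (chr11:83662584-83664683) was 1224, 2795, 1890 and 2857 CPM, and Ccl3 was 727, 1791, 1138 and 1840 CPM, each with both injured values above both sham values (edgeR log2 changes 1.09 and 1.19, SE 0.17 for each, adjusted p = 0.000421 and 0.000172). Ccl4 was found in 42.9%, 73.6%, 48.4% and 75.4% of thinned members (47.0%, 84.8%, 51.7% and 79.8% unthinned) against 6.25%, 27.9%, 0% and 30.0% of endothelial cells. Il1b, the cytokine interleukin 1 beta, was 232, 453, 74.5 and 525 CPM (2.07, adjusted p = 5.71e-05, 0.213 with DESeq2), and 10 cells held 79.9% of its UMIs in the wild-type sham members. Ccl12, a ligand of the monocyte receptor Ccr2, was 103, 269, 84.3 and 248 CPM (1.67, adjusted p = 1.89e-06). The sensor genes Cd14, at 434, 864, 434 and 816 CPM, and Tlr2, at 94.1, 206, 86.4 and 183 CPM, rose as well (1.15 and 1.30, adjusted p = 4.99e-05 and 3.96e-05). Tnf, a cytokine gene, was 147, 179, 149 and 123 CPM and did not pass (0.20, adjusted p = 0.57), nor did the inhibitors Nfkbia and Tnfaip3.

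Heat shock genes were lower in the injured libraries. Of 14 tested, 7 fell and none rose, with a median log2 change of -0.53. Hspa1a, an inducible chaperone of the 70 kDa family (chr17:34969190-34972156), was 610, 300.3, 795 and 143 CPM, falling 2.03-fold (1.81 to 2.28) in the wild-type pair and 5.54-fold (4.91 to 6.27) in the knockout-labelled pair (edgeR log2 change -1.54, SE 0.24, adjusted p = 0.000435, but 0.562 with DESeq2). Hspa1b, a near-identical neighbouring copy, was 182, 63.1, 270 and 23.7 CPM (-2.28, adjusted p = 8.90e-05), and how reads were split between the copies is uncertain. Hsp90aa1, the inducible chaperone of the 90 kDa family, was 909, 457, 822 and 416 CPM (-0.79, adjusted p = 0.00154), and the cochaperones Dnajb1, at 249, 147, 183 and 101 CPM, and Hsph1, at 48.0, 23.9, 41.1 and 18.4 CPM, fell too (-0.61 and -0.89, adjusted p = 0.021 and 0.0152). Without the knockout-labelled injured library 3 of the 14 fell, and DESeq2 called 1. Hspa1a was found in 45.5%, 29.4%, 48.4% and 18.5% of thinned members. Endothelial cells had it in 56.2%, 69.8%, 43.8% and 56.2%, so a share of cells with this gene is not read as expression by members.

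Immediate early genes, transcription factors and regulators that many stimuli switch on within minutes, showed calls in both directions. Of 22 tested, 2 rose (Egr3 and Ier2), 4 fell (Jun, Jund, Klf4 and Rhob) and 16 did not pass, with a median log2 change of -0.01 beside -0.02 for all genes. Jun, at 4657, 2600, 4272 and 2805 CPM, passed narrowly (edgeR log2 change -0.52, adjusted p = 0.0368) and not without the wild-type sham library (0.163), the wild-type injured library (0.0882), the knockout-labelled injured library (0.0515) or with DESeq2 (0.0591). Fos, its partner, did not pass (0.20, adjusted p = 0.49). The nuclear RNA Malat1 (chr19:5795690-5802672) fell from 24485 and 20240 CPM in the sham members to 10198 and 10310 CPM in the injured ones, or 2.40-fold (2.36 to 2.45) and 1.96-fold (1.93 to 1.99) (-0.92, SE 0.16, adjusted p = 0.0013). Its thinned median per cell was 63, 30, 59 and 29 UMIs. Ribosomal protein genes went the other way, with 48 of 80 tested rising and none falling, and their summed share of member UMIs was 11.5%, 15.8%, 11.8% and 14.96%. Of 13 mitochondrial genes 3 fell and none rose.

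Among single genes, those with the largest falls common to both pairs were Gadd45g, Hes1, Slc5a3, Hspa1b, Arl4d, Arrdc3, Hbegf, Bank1, Sema4b, Ccdc152, Tob1 and Gm47283. All 12 passed the edgeR test. They were chosen from these same libraries by that shared fall, so passing was close to fixed in advance and is not separate evidence. Hes1, a transcriptional repressor that Notch induces (chr16:30064384-30067796), was 86.3, 23.9, 105 and 16.9 CPM, falling 3.62-fold (2.47 to 5.44) and 6.20-fold (4.36 to 9.07) (log2 change -2.08, SE 0.21, adjusted p = 4.74e-06). Slc5a3, the transporter of the osmolyte myo-inositol, was 216, 33.7, 106 and 33.8 CPM, falling 6.41-fold (4.73 to 8.87) and 3.14-fold (2.41 to 4.14) (-1.94, adjusted p = 7.26e-06). In both genes the injured values were low and close together, while for Slc5a3 the sham values differed from each other. Gadd45g, a stress-induced gene of growth arrest, was 137, 36.5, 102 and 27.1 CPM, a 3.75-fold fall in both pairs (-1.71, adjusted p = 4.74e-06). Hbegf, a growth factor gene of the epidermal growth factor family, was 77.9, 23.9, 48.3 and 14.5 CPM, and Bank1, an adaptor best known from B cells, was 53.8, 17.5, 55.5 and 15.5 CPM (-1.52 and -1.55, adjusted p = 0.000106 and 0.00017). Sema4b, a semaphorin gene, was 26.0, 4.21, 28.1 and 6.76 CPM and Tob1, an antiproliferative gene, 114, 36.5, 71.7 and 28.5 CPM (-2.06 and -1.28, adjusted p = 0.00043 and 0.000121). Arl4d, a small GTPase gene, was 92.1, 14.7, 52.6 and 15.9 CPM and Arrdc3, an arrestin-domain gene, 61.0, 19.6, 84.3 and 19.8 CPM (-1.94 and -1.71, adjusted p = 2.24e-05 and 3.10e-05). Without the knockout-labelled injured library Hbegf, Ccdc152 and Gm47283 no longer passed (adjusted p = 0.063, 0.0594 and 0.0594). A list of 10 genes already known from earlier results of these data to be high in sham microglia, among them Slc5a3, Hes1, Hbegf, Bank1 and Txnip, fell in all 10, which is not independent evidence of its direction.

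Glycolysis and hypoxia genes rose by less, and the call depended on the scaling. Of 14 tested, 8 rose and none fell (median log2 change 0.63), among them Pgk1, at 57.1, 93.3, 64.5 and 101 CPM, Ldha, at 135, 189, 120 and 171 CPM, and Hif1a, the hypoxia-induced transcription factor, at 80.4, 123, 81.4 and 110 CPM (edgeR adjusted p = 0.00212, 0.00739 and 0.00971). With library size alone, or without the wild-type injured library, 1 of 14 rose, and with DESeq2 0, where 8 had an unadjusted p under 0.05. None of 14 complement and phagocytosis genes passed in edgeR or DESeq2, with 6 and 3 at an unadjusted p under 0.05 (median 0.22), with C1qb, a subunit of complement C1q, at 7669, 8791, 8346 and 9726 CPM (edgeR log2 change 0.41, adjusted p = 0.124). Of 12 tested genes of interleukin 6 signalling and its target STAT3, Pim1, a kinase gene that STAT3 induces, rose from 51.9 and 26.6 to 105 and 64.7 CPM (1.34, adjusted p = 5.40e-05, 0.106 without the wild-type injured library), and Lifr, the receptor of leukaemia inhibitory factor, fell from 75.9 and 62.7 to 31.6 and 26.1 CPM (-1.07, adjusted p = 0.000952, 0.0773 without the knockout-labelled injured library). The receptor genes Il6ra, at 278, 193, 246 and 207 CPM, and Il6st, at 109, 87.7, 96.5 and 89.8 CPM, and the target Socs3, at 401, 424, 449 and 421 CPM, did not pass (adjusted p = 0.529, 0.991 and 0.489).

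Between the labels, 46 genes were called among homeostatic-state cells, and the count depended on the model. In the same edgeR fit 45 genes (0.566%) were lower and 1 (0.0126%) higher in the knockout-labelled libraries, or 0.578% of genes called, and 500 genes had an unadjusted p under 0.05. DESeq2 called 1 lower and none higher, at 68 genes with an unadjusted p under 0.05. With injury left out of the edgeR model and all 4 libraries kept, none passed in either direction, at 141 genes with an unadjusted p under 0.05. A fit without 1 library also has to leave out injury, so such fits do not show whether a single library decides these calls. None of the 35 homeostatic genes, 11 identity factors or 21 interferon-induced genes was called by edgeR or DESeq2, with 4, 0 and 3 of them at an unadjusted p under 0.05 in edgeR and 2, 0 and 0 in DESeq2. In edgeR, 6 of the 26 disease-associated genes were called lower with the knockout label (Apoe, Spp1, Lgals3, Gpnmb, Fabp5 and Apoc1). So were 3 of the 19 inflammatory genes (Ccl7, Cxcl2 and Ptgs2) and Pim1. DESeq2 called 0 of these 26, 0 of these 19 and 0 of the 12 genes of interleukin 6 signalling and STAT3. There 1, 2 and 2 of them had an unadjusted p under 0.05. The fit assumes the same label difference in sham and injured libraries. Among sham members, wild-type first, Apoe was 1458 and 958 CPM, Fabp5 11.7 and 9.72 CPM and Spp1 0 and 2.88 CPM, and Gpnmb had 0 UMIs in each. For Spp1, Fabp5 and Gpnmb the call therefore rests mainly on the injured libraries.

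Cxcl2, a chemokine that draws neutrophils (chr5:90903871-90905938), was 157, 264, 28.1 and 110 CPM, so that each knockout-labelled library lay below both wild-type libraries (edgeR log2 difference -1.85, SE 0.21, adjusted p = 0.000125). Few cells carried it, with a UMI in 10.1%, 13.7%, 2.64% and 8.54% of thinned members (11.0%, 18.0%, 3.86% and 11.2% unthinned) against 0%, 6.98%, 0% and 5.00% of endothelial cells, and 10 cells held 81.8%, 73.7%, 92.3% and 79.7% of its UMIs. It was 142, 214, 22.1 and 102 CPM without members with at least 3 genes of another cell type's list, where it still passed (-1.78, adjusted p = 1.17e-06). Cdkn1a, a cell cycle inhibitor gene, was 145, 149, 58.0 and 76.3 CPM (-1.18, SE 0.16, adjusted p = 0.00103) and 124, 138, 58.6 and 74.6 CPM without those members (-1.01, adjusted p = 0.000309). Wfdc17, a secreted protein gene of macrophages, was 18.8, 240, 3.24 and 18.8 CPM (-3.52, adjusted p = 2.95e-07), and without those members 9.57, 144, 1.11 and 17.7 CPM (-3.09, adjusted p = 1.84e-10). Apoe, Fabp5 and Vim were called lower (-1.41, -2.23 and -1.51, adjusted p = 0.0121, 0.00146 and 0.000534), and so they were without those members (-1.41, -1.92 and -0.99, adjusted p = 2.92e-05, 0.000114 and 0.0186). With any cell carrying Ms4a7 or Gpnmb left out too they were not called (-0.81, -0.89 and 0.03, adjusted p = 0.178, 0.254 and 0.994), whereas Spp1 still was (-2.99, adjusted p = 3.65e-12), and Wfdc17, Lgals3, Gpnmb and Apoc1 could not be tested. Iqgap1 and Clic4, the other genes named by size, were 26.6, 39.99, 9.002 and 14.01 CPM and 28.5, 44.2, 10.8 and 15.9 CPM and did not pass with all 4 gate markers required (adjusted p = 0.965 and 0.513). The gene called higher was Ttr, the thyroid hormone carrier made in the choroid plexus, at 26.0, 3.51, 74.5 and 194 CPM, with 92.0% of its knockout-labelled injured UMIs in 10 cells (2.97, adjusted p = 0.00146). Without members with at least 3 genes of another cell type's list Ttr was 26.7, 3.87, 71.1 and 194 CPM (2.88, adjusted p = 1.17e-06), and without those carrying Ms4a7 or Gpnmb too 12.0, 4.96, 71.1 and 22.8 CPM (2.48, adjusted p = 3.81e-08). Among the other genes named by size as higher, B430010I23Rik, Ergic1 and Erh did not pass, with Erh at 38.3, 33.7, 62.3 and 55.1 CPM (0.67, adjusted p = 0.191).

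Members varied among themselves most in a few transcripts. After thinning to 3000 UMIs, which left out 47, 20, 73 and 41 shallower cells, the variance-to-mean ratio over cells would be 1 for pure sampling, and its lowest value over the 4 libraries had a median of 0.947 over the tested genes. The 10 genes with the highest such value were Apoe, Cst3, Ccl4, Ccl3, Malat1, Fos, Jun, Klf2, Il1b and Egr1. For Apoe the ratio was 139, 211, 107 and 188, for Ccl4 17.3, 17.2, 22.8 and 15.6, and for Il1b 18.5, 6.596, 7.76 and 16.1. A long tail of cells thus carried much of the Apoe, with a 90th percentile of 4, 188, 3 and 32 UMIs and a highest cell of 270, 690, 223 and 605. P2ry13 was spread evenly in comparison, found in 75.1%, 52.3%, 78.6% and 57.3% of thinned members (80.1%, 74.7%, 85.5% and 77.6% unthinned) with no cell above 9 UMIs, and in 0%, 0%, 0% and 3.75% of endothelial cells. Ifitm3 was found in 4.23%, 30.5%, 1.76% and 29.2% of members, and endothelial cells, which express it themselves, had it in 93.8% to 95.3%.

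**Figure D5:**
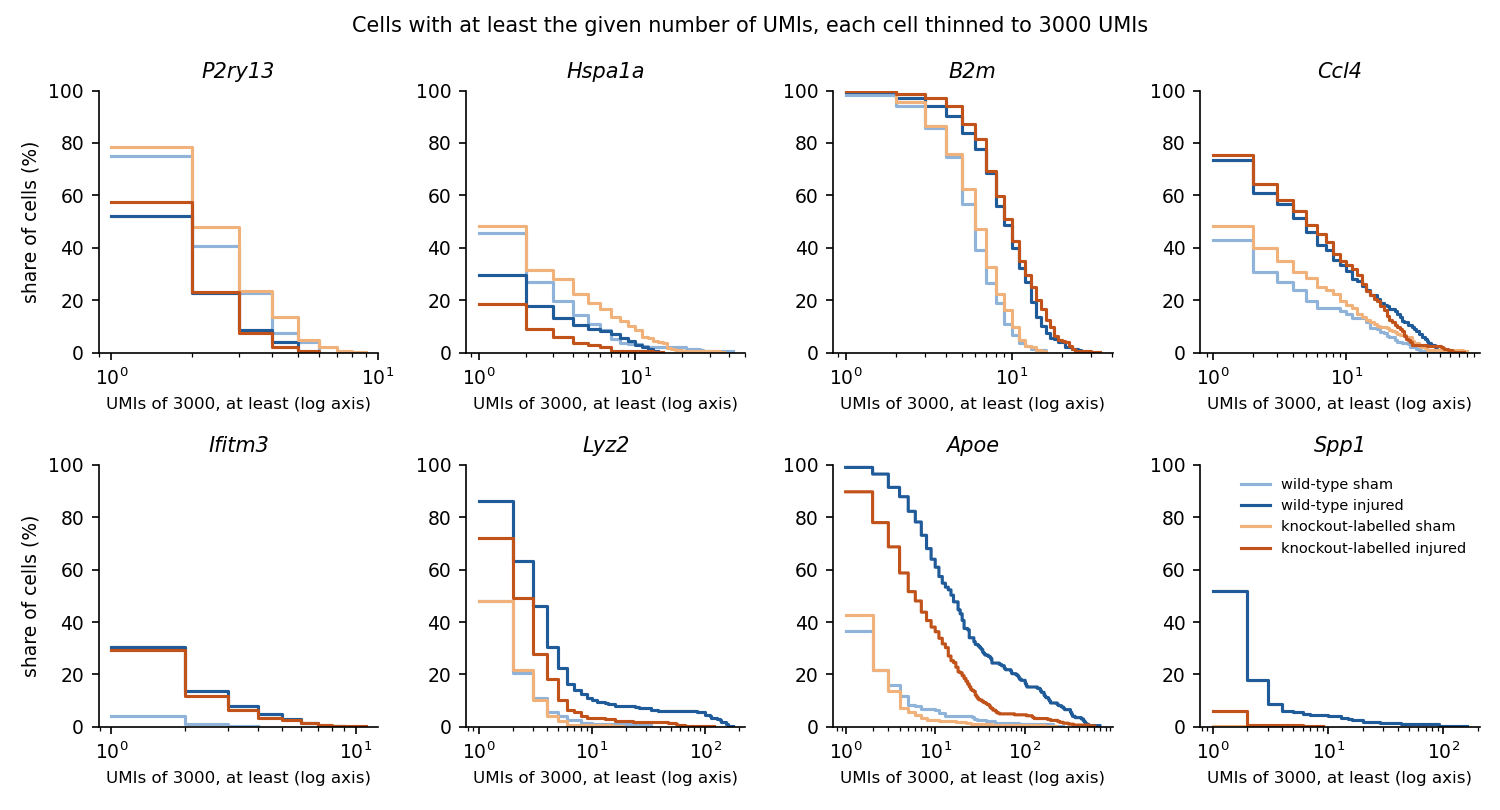
Share of members with at least a given number of UMIs of 8 genes, each cell thinned to 3000 UMIs, for the 4 libraries. The horizontal axis is the number of UMIs per cell and the vertical axis the percentage of cells. The B2m curves of the injured libraries lie to the right over their whole length, the P2ry13 curves to the left, and Apoe and Spp1 of the wild-type injured library end in long tails.

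Members are set here beside the marker-positive cells that failed 1 limit alone, as a description with no test, since the rule made these classes. Cells that failed only the Cst7 and Lpl limit, 200 and 184 in the injured libraries, had 758 and 1003 CPM of P2ry12 against 1328 and 1846 in members, and 6278 and 5441 CPM of Ctsb against 3562 and 2476. Their Apoe was 50600 and 18852 CPM against 34186 and 7955 in members. Cells that failed only the Il1a and Gpr84 limit had P2ry12 at 2269, 1352, 2664 and 1658 CPM, above members in 3 libraries and below them in the knockout-labelled injured one. Their P2ry13, at 412, 228, 517 and 261 CPM, was below that of members in each library. So were their Apoe, at 772, 23179, 657 and 5020 CPM, and their Ctsb, at 1441, 2941, 1474 and 2292 CPM. Their Ccl4, at 1884, 4424, 2101 and 4326 CPM, was above that of members in each library, by least in the knockout-labelled sham one, where members had 1890 CPM. In the wild-type injured library their Spp1 was 613 CPM against 2400 in members. The members of the injured libraries had more Apoe and Ctsb than either members or Il1a- and Gpr84-failing cells of the sham libraries.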

How the data were processed

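The values deposited by the authors are raw counts of UMIs for each gene in each barcode. The submitters' processing notes name Cell Ranger 6.0.1 and mm10. All 32285 gene identifiers were read, and 78 of them share a symbol with another. Positions come from the GENCODE vM21 annotation of GRCm38, and upstream sequences from the RefSeq table for GRCm38.p6. The rule for members, the gene lists and the comparisons were chosen with earlier results of these data known. Member UMIs were summed per library and tested with edgeR 4.0.16 (quasi-likelihood, label and injury as factors, 1 residual degree of freedom, TMM scaling, Benjamini-Hochberg adjustment over all tested genes) in R 4.3.3. Genes needed at least 10 CPM in 2 libraries and 50 UMIs in all. Within a pair of libraries there is no test. CPM carry exact Poisson, ratios exact conditional binomial and shares exact Clopper-Pearson 95% intervals. These and the floor of 3 UMIs cover counting error only. Per-cell values were thinned to 3000 UMIs. Doublets, scored with Scrublet in scanpy 1.11.5, stayed in (23 members) and were left out as an alternative. The named genes are the 12 with the largest rise and the 12 with the largest fall common to both pairs (log2 ratio with a prior of 10 CPM), 6 each way for the labels, the 10 most variable among cells, and the genes of the lists and of the rule. A few of them are not reported here. The fit was tested on simulated counts. Alternatives were other scaling, filters, cell limits, DESeq2 1.42.0 and each library left out.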

Additional observations from a re-analysis of the deposited data

Results flagged for a closer look

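In 4 of the 7955 tested genes the injured-to-sham ratio was at least 2-fold in opposite directions under the 2 labels, and this difference was not tested because an interaction leaves no residual degrees of freedom. H2-Aa, a class II antigen presentation gene, had a log2 ratio of -1.54 in the wild-type pair and 3.24 in the knockout-labelled pair, from 45, 5, 3 and 196 UMIs in wild-type sham, wild-type injured, knockout-labelled sham and knockout-labelled injured members. H2-Eb1, another class II gene, was at -1.60 and 2.89, from 41, 3, 2 and 144 UMIs. For H2-Aa 100% of the wild-type sham UMIs and 98.98% of the knockout-labelled injured UMIs lay in 10 cells, and for H2-Eb1 100% in both. Ly6a, a surface protein gene, was at -1.40 and 1.25, from 85, 21, 15 and 55 UMIs, with 97.6% and 45.5% of the same libraries' UMIs in 10 cells. Ttr was at -1.41 and 1.27, from 40, 5, 207 and 402 UMIs, with 80.0% and 92.0% in 10 cells.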

How the results depend on the processing

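Over the alternatives tried, 184 of 187 refitted values of the 12 named rising genes and 196 of 202 of the 12 named falling genes kept their direction and stayed past the threshold, and the other 3 and 6 kept their direction only. DESeq2 no longer called Spp1, Gpnmb, Lyz2, Hspa1b (adjusted p = 0.29), Sema4b (0.0945) and Ccdc152 (0.178). A setting in which a gene could not be tested gave no value and is not among the 187 or the 202. These genes were also chosen for agreement of the 2 pairs in these same libraries, so their stability is not separate evidence. The counts of calls moved far more. Genes higher after injury numbered 243 with library size alone, 175 with DESeq2 and 167 to 462 with 1 library left out. Genes lower numbered 371, 20 and 40 to 331, and 324 with doublets left out. Between labels, genes higher in the knockout-labelled libraries numbered 12 with median-of-ratios factors, 0 with library size alone, DESeq2 or injury left out of the model, 26 without the filter, 11 without doublets, 6 with all 4 gate markers, 5 with at least 2000 UMIs, 2 with Cst7 and Lpl both at 0, 7 when thinned before the rule, 9 without members carrying Ms4a7, Gpnmb or 3 listed markers, 4 without those with 3 listed markers, 3 without shared barcodes and 0 to 2 with 1 library left out. Genes lower numbered 77, 10, 1 and 0 in the same order up to the model without injury, then 127 without the filter, 75 without doublets, 29 without members carrying Ms4a7, Gpnmb or 3 listed markers and 0 to 5 with 1 library left out. These steps on markers and shared barcodes were chosen after seeing the data. With 1 library left out, the log2 label difference ranged from -4.46 to 1.76 for Apoe, -4.94 to 1.98 for Fabp5, -3.43 to 1.04 for Ms4a7 and -3.97 to 0.55 for Vim, and -2.02 to 0.14 for Gm47283. These fits leave injury out and one label with sham or injured cells alone, so a gene that changes with injury takes its sign there from injury by construction, and nothing about the labels is read from them. For Vim the difference was 0.026 without members carrying Ms4a7, Gpnmb or 3 listed markers, where fewer cells enter. Requiring all 4 markers put the member shares at 15.5%, 4.27%, 21.7% and 8.57%, thinning first at 49.5%, 9.59%, 55.1% and 18.3%, and Cst7 and Lpl at 0 put the injured shares at 5.41% and 9.02%, with sham above injured each time. No paired analysis was possible because each group holds 1 library with the same number 1. A fit without a library also drops the other factor and assumes that the lone library of its group varies like the others. With 217 to 414 members per library, a gene under about 10 CPM rests on few UMIs and is not read either way.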
